A study of Danio rerio with 6 samples.

Results

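The intergenic long non-coding RNAs (lncRNAs) with 2 exons are the assembled transcripts on chromosomes 1 to 25 for which the deposited table names no gene and lists 2 exons. They numbered 684 transcripts with 571 locus identifiers, out of 4731 intergenic lncRNAs on these chromosomes (14.5%) and 8363 lncRNAs in the table. A further 77 transcripts of this kind lay on unplaced scaffolds or the mitochondrial genome and were not counted as members. The transcripts compared with them are the 3645 intergenic lncRNAs with 1 exon.

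ZF4 is an established fibroblast line from zebrafish embryos. Total RNA depleted of ribosomal RNA was sequenced with strand-marking libraries from 3 control cultures kept at 28 °C and from 3 cold acclimated cultures kept at 18 °C for 30 days, in the same medium. The study compared them to find lncRNAs that differ after long culture in the cold. All cultures came from this single line, with no genetic change, and what is seen in it may not hold in the fish or in other cell types.

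The level of each transcript was given in FPKM, which counts fragments relative to the length of the transcript in kilobases and to all mapped fragments, as a single mean of the 3 cultures of each group. The spread between cultures and the depth of each library are therefore unknown from these means. No difference between control and cold acclimated cells could be tested from them against replicate error. The p-values and FDR that the authors deposited were not used. Intervals given for medians and shares cover counting over transcripts only. In bulk RNA, fewer cells that express a transcript and less of it per cell cannot be told apart. Only lncRNAs are listed, so the label of fibroblast could not be checked against marker genes.

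LncRNAs are transcripts without a recognised protein-coding frame, made by the same polymerase and spliced by the same machinery as mRNAs. Splicing removes the intron between 2 exons and joins them, and a spliced transcript can be assembled from reads that cross the junction. Unlike mRNAs, many intergenic lncRNAs have few exons and are expressed at low levels, and the roles of most are not known. None of the transcripts described here has a name or an assigned role in the table.

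A single member, MSTRG.2490.1, had quantitative PCR primers in the primer table of the study. They are shown because they are the sequence handle of a member that was among those whose mean in the cold was far lower. Both are written from 5′ to 3′, and capitals mark a run of 4 tandem copies of GTCA at the start of the reverse primer.
MSTRG.2490.1 forward: aatatgtgccaggagctacg
MSTRG.2490.1 reverse: GTCAGTCAGTCAGTCAgaacag
MSTRG.2490.1 lies at chr11:5265293-5267327 (GRCz10), is 1853 nt long and spans an intron of 182 nt. The mean of control cells was 4.04 FPKM and that of cold acclimated cells 0.361 FPKM, which gives a log2 ratio of -3.17. The nearest transcript of another locus identifier was 7253 nt away, and the nearest at which the table names a gene, ptprga, was 82278 nt away. The position of the primers within the exons was not looked up, and the PCR measurements were not analysed here.

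The intron of a 2-exon transcript is the span of the locus minus the length of the transcript. Among the 684 members its median was 1494 nt (95% confidence interval of the median 1140 to 2032 nt), the quartiles were 348.5 and 7678.5 nt, and sizes ran from 21 to 102749 nt. The intron was longer than the transcript itself in 402 members (58.8%). In the 837 lncRNAs with 2 exons at a named gene, the median intron was 5833 nt (4600 to 6968 nt), and the intervals did not overlap. Introns of 20000 nt or more were found in 12.1% of the intergenic members and in 27.8% of those at named genes, and introns of 50000 nt or more in 3.95% and 15.1%. With a single transcript kept per locus, the median of the intergenic members was 1249 nt.

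**Figure D1:**
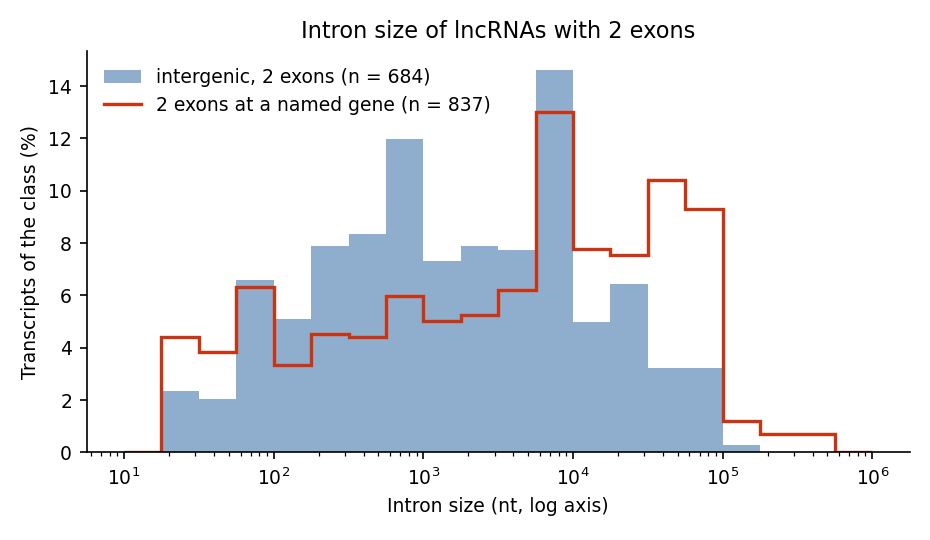
Share of transcripts (percent of each class) by intron size in nt on a log axis, in bins of equal width on that axis, for the 684 intergenic lncRNAs with 2 exons (filled) and the 837 with 2 exons at a named gene (line). Medians were 1494 and 5833 nt, and the largest gap between the classes lay at introns above 20000 nt.

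The ends of this distribution were uneven in form. The intron was shorter than 100 nt in 75 members and shorter than 50 nt in 26. The smallest introns were 21 nt in MSTRG.20305.1 on chromosome 3 and in MSTRG.24025.1 on chromosome 5, and the next was 24 nt, found in 4 members. These were MSTRG.25268.1 on chromosome 5, MSTRG.970.1 on chromosome 1, MSTRG.26911.5 on chromosome 6 and MSTRG.9165.2 on chromosome 17. Gaps of this size are shorter than most introns known in vertebrates, and whether they were spliced out was not tested, because the table gives neither junction reads nor exon boundaries. At the upper end stood MSTRG.25023.3 (102749 nt, chromosome 5), MSTRG.19115.1 (102602 nt, chromosome 25) and MSTRG.26985.3 (93553 nt, chromosome 6). The exons of MSTRG.26985.3 together made up only 311 nt.

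Members were longer than intergenic lncRNAs with 1 exon. Their median length was 786.5 nt (707 to 896 nt) against 477 nt (461 to 497 nt), and 58.6% of members against 75.4% of 1-exon transcripts were shorter than 1000 nt. The median span on the chromosome was 3275.5 nt against 477 nt. The longest members were MSTRG.30177.1 (11810 nt) and, at 11804 nt, MSTRG.30177.3 and MSTRG.30177.4 with MSTRG.30177.2, all at the same locus on chromosome 9. Across the 684 members, longer introns went with slightly shorter transcripts (Spearman's rho -0.27). The median length was 1404.5 nt at introns below 50 nt and 486 nt at introns of 20000 nt or more.

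The label intergenic rests on the absence of a gene name in each row. The listed intervals were searched for overlap with lncRNAs at which a gene is named. Gene annotation was not used, so overlap with a gene that no listed lncRNA names could not be seen. Of the 684 members, 46 (6.73%) overlapped a transcript for which a gene is named, against 1.62% of the 1-exon transcripts. The most abundant pair in control cells, MSTRG.3605.1 and MSTRG.970.1, differed in this respect. MSTRG.3605.1 overlapped MSTRG.3605.7, a 3-exon transcript at nrbf2b, while MSTRG.970.1 was 74539 nt from the nearest transcript with a named gene. Overlap with any transcript of another locus identifier was found for 223 members (32.6%) and for 4.36% of the 1-exon transcripts, whose spans are shorter. The strand is not in the table, so overlap on the same strand and on the opposite strand could not be told apart.

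Intergenic lncRNAs with 2 exons were present at higher levels than those with 1 exon. The median over the members was 1.67 FPKM at 28 °C and 1.09 FPKM after culture at 18 °C, and over the 1-exon transcripts 0.996 and 0.603 FPKM. For the mean of both groups, the medians were 1.39 FPKM (1.298 to 1.478 FPKM) and 0.790 FPKM (0.771 to 0.812 FPKM). A mean above 10 FPKM was reached by 36 members (5.26%) and by 1.15% of 1-exon transcripts, against 2.76% of all lncRNAs. Of these members, 6 share an interval and length on chromosome 12 and 3 on chromosome 25. A mean below 1 FPKM was found in 32.6% of members and 65.1% of 1-exon transcripts, against 53.8% of all lncRNAs. The intergenic transcripts with 3 or more exons had a median of 1.63 FPKM. Those with 2 exons at a named gene had a median of 1.43 FPKM, and 8.48% of them were above 10 FPKM.

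The 2-exon transcripts had the higher median in each class of length. Among transcripts shorter than 400 nt the median mean level was 0.931 FPKM with 2 exons and 0.574 FPKM with 1 exon. From 400 to below 800 nt it was 1.23 against 0.835 FPKM, and from 800 to below 1600 nt 1.58 against 1.00 FPKM. At 1600 nt or longer it was 2.06 against 1.16 FPKM. The intervals of the medians did not overlap in any of the 4 length classes. Within the members, the level was related to transcript length (Spearman's rho 0.35, n = 684) and hardly to intron size (rho -0.07). These values share their FPKM with the length used to compute it, and the authors' filter on expression acted before either class was counted.

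**Figure D2:**
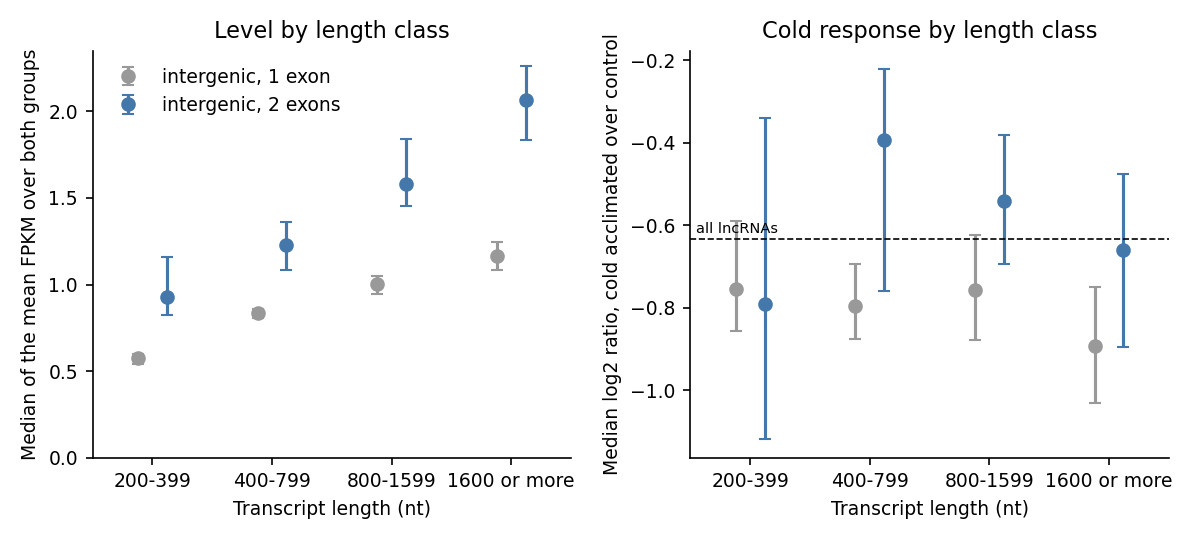
Median of the mean FPKM over both groups (left) and median log2 ratio of the cold acclimated mean to the control mean (right) by transcript length in nt, for intergenic lncRNAs with 1 exon (grey) and 2 exons (blue), with bars for the 95% interval of each median over transcripts. The 2-exon medians lie above the 1-exon medians in all 4 classes on the left, while on the right the order at lengths below 400 nt is the opposite of that in the longer classes, and the dashed line marks the median of all lncRNAs (-0.63).

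Much of the summed signal came from few members. MSTRG.14967.1, a transcript of 608 nt with an intron of 246 nt at chr20:55338424-55339277, stood at 24.5 FPKM in the control mean and 6404 FPKM in the cold acclimated mean. Of the summed FPKM of the members, it made up 0.705% in the control mean and 72.2% after cold acclimation. All members together summed to 3483 FPKM for control and 8868 FPKM for cold acclimated cells, and without MSTRG.14967.1 to 3458 and 2464 FPKM. The direction of the summed level thus depended on this transcript, which was the only one listed at its locus and overlapped no other transcript of the table. Whether it was high in all 3 cold acclimated cultures cannot be seen from a group mean.

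The next 4 members by mean level lay within 2-fold of their control mean. MSTRG.3605.1 stood at 316 and 167 FPKM in control and cold acclimated cells, and MSTRG.970.1, with its intron of 24 nt, at 244 and 127 FPKM. MSTRG.3604.5 stood at 139 and 97.8 FPKM, a log2 ratio of -0.50 that turns to 0.13 when the groups are scaled to the median of all lncRNAs. MSTRG.28409.4 on chromosome 7 stood at 95.7 and 121 FPKM and was the only one of these 4 with the higher mean in the cold. MSTRG.3604.5 and MSTRG.3605.1 share their interval (chr12:8479031-8488299), length and intron of 7985 nt with 4 more members under the same 2 locus identifiers. Reads from such copies can be divided among them, and the level of each is uncertain.

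In the cold, the members as a group had lower means, by about as much as all lncRNAs did. Log2 ratios, cold over control, were taken after adding 0.1 FPKM, which understates the change of low transcripts, over the 675 members above 0.5 FPKM in at least 1 group. Their median was -0.58 (-0.69 to -0.45), with quartiles of -1.59 and 0.22. The median over all 8108 lncRNAs passing this filter was -0.63, and relative to it the median of the members was 0.058. Of the 675, 469 (69.5%) had the lower mean in cold acclimated cells, against 68.0% of all 8108 lncRNAs.

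In 80 of the 675 members (11.9%) the cold acclimated mean was more than 2-fold higher, against a background of 13.3% over all lncRNAs tested. It was more than 2-fold lower in 257 (38.1%), against 39.4%. Both shares were close to the background and are not particular to the members. With the groups scaled to the median of all lncRNAs, the split was 144 higher (21.3%) and 163 lower (24.1%). For the intergenic 1-exon transcripts the scaled shares were 21.7% and 26.5%. Scaled shares over all lncRNAs were not computed. Without scaling, the remaining 338 members (50.1%) lay within 2-fold.

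**Figure D3:**
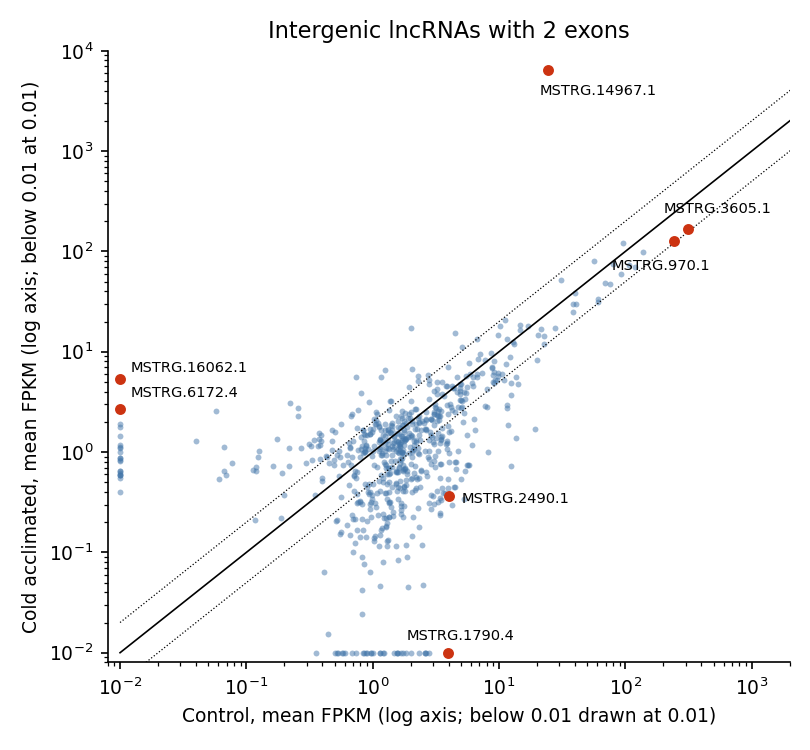
Mean FPKM in control cells (horizontal) and cold acclimated cells (vertical) of the 684 members, each point a transcript, both axes logarithmic with values below 0.01 FPKM drawn at 0.01. The solid line marks equal values, the dotted lines a 2-fold difference, and MSTRG.14967.1 stands apart at 6404 FPKM in the cold while most members lie between 0.1 and 10 FPKM.

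Set against 1-exon transcripts, the members had the higher median log2 ratio, but not under every setting. The median log2 ratio of the 3511 intergenic 1-exon transcripts was -0.79 (-0.84 to -0.72), and 70.9% of them were lower in the cold. More than 2-fold higher were 12.9% and more than 2-fold lower 43.3%. The difference between the medians of 2-exon and 1-exon transcripts was 0.21 on the log2 scale. It was -0.039 when only transcripts above 0.5 FPKM in both groups were kept, and -0.023 as the median over 5 classes of mean level. Its sign thus depended on which transcripts were compared. The filter and the classes use the same FPKM means as the ratio, so they cannot show whether level sets the sign.

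Within the 5 level classes the difference ran from 0.72 in the lowest to -0.25 in the middle class and -0.18 in the highest. The lowest class, with mean levels up to 0.483 FPKM, held 52 members and 671 1-exon transcripts. A transcript there passed the filter only if 1 group was above 0.5 FPKM. The other group had to be lower, so the ratios of this class were partly set by the filter. By length, the members below 400 nt had a median of -0.79 against -0.75 for 1 exon, and those from 400 to below 800 nt -0.39 against -0.80. From 800 to below 1600 nt the medians were -0.54 and -0.76, and at 1600 nt or longer -0.66 and -0.89. A larger gap separated both classes from the 402 intergenic lncRNAs with 3 or more exons, at a median of 0.19 (0.060 to 0.31) over 401 transcripts. These gaps between classes were not tested, since transcripts are not replicates of a condition.

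The median log2 ratio differed between classes of intron size among the members. At introns of 50 to below 100 nt the median log2 ratio was -0.28, at 100 to below 500 nt -0.37 and at 500 to below 1000 nt -0.34. These 3 classes were lower in the cold as deposited but higher than the median of all lncRNAs (-0.63). From 1000 to below 5000 nt the median was -0.85, from 5000 to below 10000 nt -0.61, and from 10000 to below 20000 nt -1.06. At introns of 20000 nt or more it was -1.31 (-2.05 to -0.67), and 45 of 81 members there (55.6%) were more than 2-fold lower, against the background of 39.4%. More than 2-fold higher were 14.8%, against 13.3%.

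The relation was weak over single transcripts and was not shared with transcripts at named genes. Spearman's rho between intron size and log2 ratio was -0.16 over the 675 members and 0.05 over the 823 lncRNAs with 2 exons at a named gene, as a description over transcripts that share the same libraries. At named genes, the median at introns of 20000 nt or more was -0.50 (-0.62 to -0.31). The members with such introns also had a shorter median length (486 nt) and a median mean level of 1.31 FPKM, and the part of length in the result was not tested. Their median was -1.05 with a single transcript per locus, -1.20 without the locus with the most members, and -0.50 when both groups had to be above 0.5 FPKM.

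**Figure D4:**
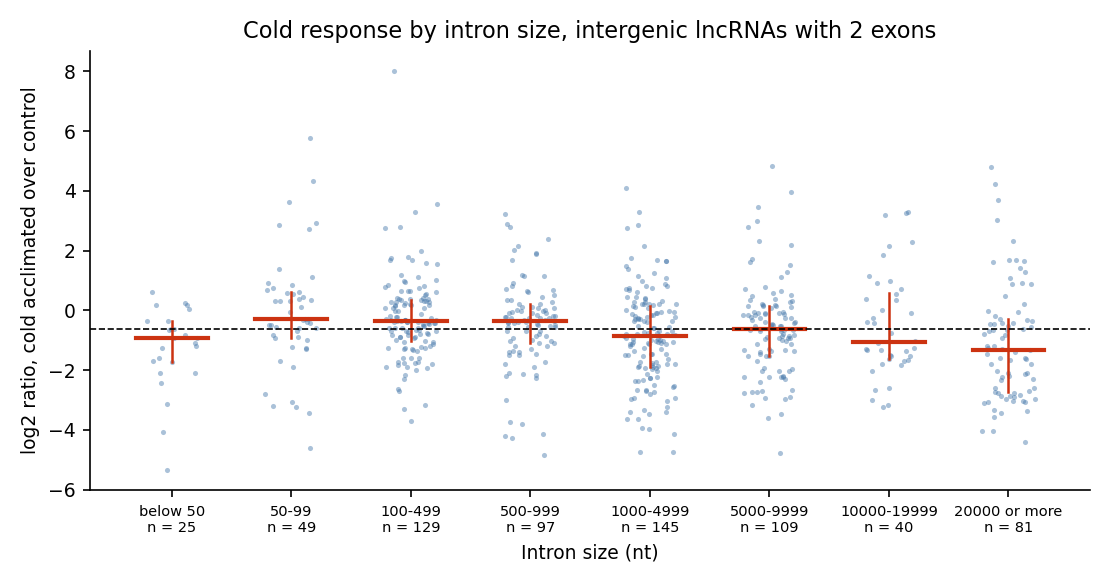
Log2 ratio of the cold acclimated mean to the control mean (after adding 0.1 FPKM) of the 675 members above 0.5 FPKM in at least 1 group, by class of intron size in nt, with each point a transcript, red horizontal lines for medians, vertical red lines for the quartiles and a dashed line for the median of all lncRNAs (-0.63). The class medians run from -0.28 at 50 to below 100 nt to -1.31 at 20000 nt or more.

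The 26 members with an intron below 50 nt had a lower median log2 ratio than the class next to them. Of the 25 that passed the filter, 0 were more than 2-fold higher (background 13.3%) and 12 (48%) were more than 2-fold lower (background 39.4%). Their median was -0.94 (-1.69 to -0.63). The 26 had a median length of 1404.5 nt, while the background covers all lengths. Among members of 800 to below 1600 nt, 7.10% were more than 2-fold higher and 27.7% lower. At 1600 nt or longer, the shares were 5.62% and 38.2%. The part of length was not tested. At named genes, the median of this intron class was -0.54, close to that of the class next to it (-0.52). There, 10.3% were more than 2-fold higher and 37.9% more than 2-fold lower. Scaled to the median of all lncRNAs, the median of the intergenic members with introns below 50 nt was -0.30. Members of this class were found in both directions, and MSTRG.27738.4 (intron 38 nt), chosen after its values were seen, had the largest log2 ratio among them, at 0.62. MSTRG.20305.1 stood at 8.85 and 6.90 FPKM in control and cold acclimated cells, and with the groups scaled its log2 ratio changes sign, from -0.35 to 0.28. MSTRG.24025.1 stood at 1.496 and 0.809 FPKM and MSTRG.25268.1 at 2.099 and 1.047 FPKM.

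Some members were listed at 0 FPKM in 1 of the groups. The authors kept only transcripts above 0.5 FPKM in at least 1 sample, so none could be at 0 in both. In control cells 21 were listed at 0, with 0.401 to 5.39 FPKM in the cold (median 0.865 FPKM), and in cold acclimated cells 33, with 0.354 to 3.96 FPKM in control cells (median 1.15 FPKM). These were 3.07% and 4.82% of the members, against 2.94% and 4.40% of all 8363 lncRNAs. Both shares were close to those of all lncRNAs, so such zeros are not particular to the members. No fold change is named for a member at 0. With 0.1 FPKM added, those above 0.5 FPKM in the other group still entered the medians and counted as beyond 2-fold. Highest among those at 0 in control cells were MSTRG.16062.1 (5.39 FPKM in the cold), MSTRG.10196.1 (2.72 FPKM) and MSTRG.14422.2 (1.89 FPKM). Highest among those at 0 in the cold were MSTRG.1790.4 (3.96 FPKM in control, with an intron of 36 nt), MSTRG.8171.2 (2.80 FPKM) and MSTRG.19537.5 (2.66 FPKM).

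Most of these zeros belonged to loci with more than 1 transcript. Of the 21 members at 0 in control cells, 14 shared a locus identifier with another transcript, and in 9 cases a partner was above 0.5 FPKM in the same group. Of the 33 at 0 in the cold, 23 shared a locus and 20 had such a partner. Over all 684 members, 231 (33.8%) shared a locus with another transcript. For the remaining members at shared loci, no partner was above 0.5 FPKM in that group. MSTRG.27159.1 (2.58 FPKM in control, 0 in the cold) and MSTRG.10196.1 were each the only transcript with their locus identifier. MSTRG.10196.1 overlapped 1 transcript of another locus identifier, and MSTRG.27159.1 overlapped 0.

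At most loci with several members, these had the same direction. Of all 675 members passing the filter, 69.5% were lower in the cold, so members of different loci also often share a direction. Whether members of the same locus did so more often was not tested. At 76 loci there were 2 or more members, 189 in all. At 44 of these loci all members were lower in the cold, at 10 all were higher, and at 22 the members went in both directions. The log2 ratios within a locus spanned a median of 1.32. At 6 loci, members lay beyond 2-fold in both directions: MSTRG.15250, MSTRG.16062, MSTRG.18739, MSTRG.19537, MSTRG.6172 and MSTRG.8234. At 5 of these, a direction was reached only by members at or near 0 in a group, whose ratio depends on the pseudocount. Only MSTRG.8234 had measured levels both ways, with MSTRG.8234.1 at 0.371 and 1.15 FPKM and MSTRG.8234.2 at 11.7 and 1.85 FPKM in control and cold acclimated cells.

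At MSTRG.16062 on chromosome 21, the higher direction rested on a member listed at 0 in control cells. MSTRG.16062.1 (intron 95 nt) was listed at 0 in control cells and 5.39 FPKM in the cold, and MSTRG.16062.2 (intron 83 nt) at 13.7 and 1.38 FPKM. The transcripts differ by only a few bases at each end. Their sum was 13.7 FPKM in control cells and 6.77 FPKM in the cold, so the sum was lower while 1 of its members was higher. MSTRG.15250 on the same chromosome had introns of 70 and 72 nt, with MSTRG.15250.1 at 6.48 and 1.66 FPKM and MSTRG.15250.2 at 0 and 1.13 FPKM.

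At MSTRG.6172 on chromosome 14, 3 of the 4 members are nested and the remaining one, MSTRG.6172.1, lies apart from them. MSTRG.6172.1 (intron 8032 nt) stood at 27.7 and 17.4 FPKM. MSTRG.6172.4, whose exons of 279 nt enclose an intron of 81778 nt, stood at 0.000986 FPKM at 28 °C and 2.68 FPKM after culture at 18 °C. From the same start, MSTRG.6172.5 (intron 24259 nt) stood at 2.00 FPKM in control cells and was listed at 0 in the cold, and MSTRG.6172.6 (intron 19384 nt) was listed at 0 and 0.865 FPKM. These 3 begin at the same base and differ in where they end. The 4 members summed to 29.7 and 21.0 FPKM, and MSTRG.6172.4, with its control mean close to 0, gives no usable fold.

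The locus MSTRG.19537 on chromosome 25 held 5 members with nearly equal intervals. MSTRG.19537.4 stood at 120 and 69.5 FPKM, MSTRG.19537.2 at 91.9 and 60.2 FPKM, and MSTRG.19537.3 at 40.7 and 30.2 FPKM, in control and cold acclimated cells. MSTRG.19537.6 was higher in the cold, at 5.09 and 11.2 FPKM, and begins a base further on. With the groups scaled to the median of all lncRNAs, the log2 ratios of MSTRG.19537.2 and MSTRG.19537.3 turn from -0.61 and -0.43 to 0.024 and 0.20. The 5 members summed to 260 and 171 FPKM. At 9 intervals, 25 members had the same interval and length as another member, so the 684 transcripts hold 668 distinct combinations.

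**Figure D5:**
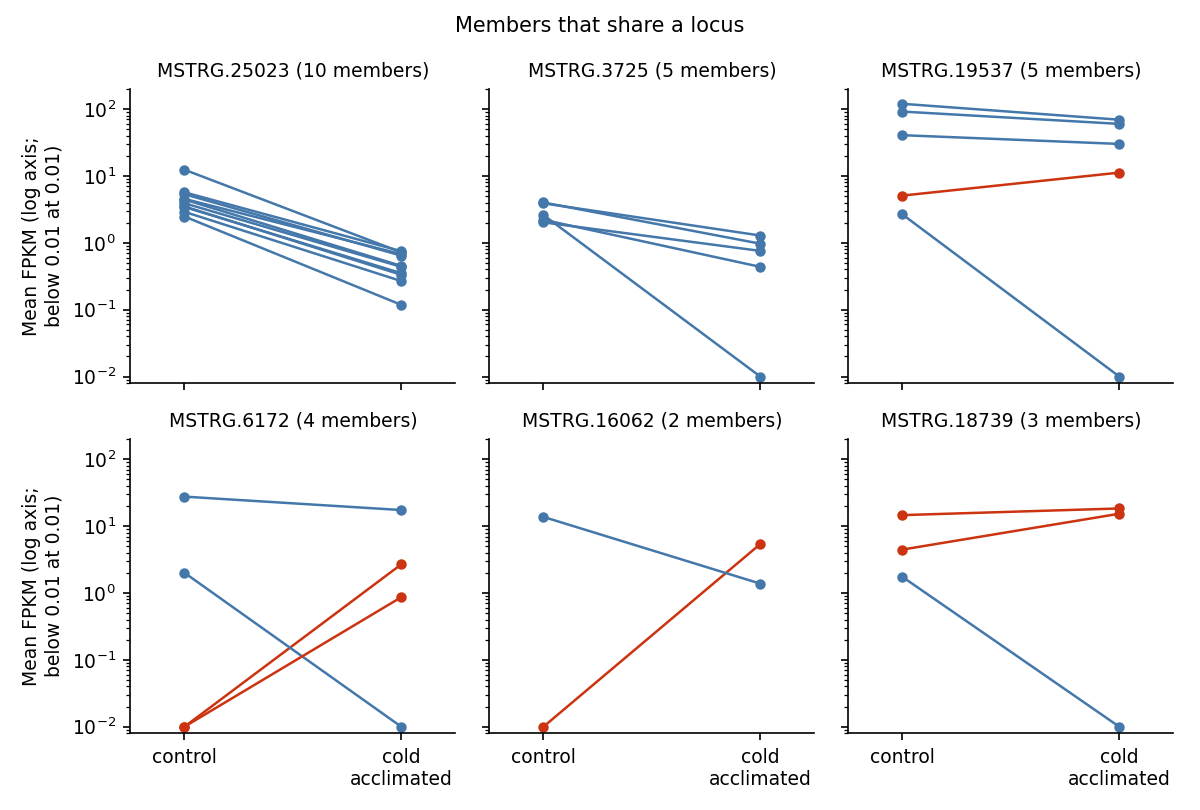
Mean FPKM (log axis, values below 0.01 drawn at 0.01) in control and cold acclimated cells of the members at 6 loci, each line a transcript, blue where the mean was lower and red where it was higher in the cold. All 10 members of MSTRG.25023 and all 5 of MSTRG.3725 were lower, while lines cross at MSTRG.6172 and MSTRG.16062, and 2 of the 3 blue lines at high levels of MSTRG.19537 turn to higher when the groups are scaled to the median of all lncRNAs.

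At other loci, all members had the lower mean in the cold. MSTRG.25023 held 10 members, more than any other locus, with introns from 2441 to 102749 nt. Control means were 2.47 to 12.4 FPKM and cold acclimated means 0.118 to 0.749 FPKM, and the log2 ratios ran from -3.93 to -2.58. The member with the highest control mean, MSTRG.25023.16, stood at 12.4 and 0.722 FPKM. MSTRG.3725 on chromosome 12 held 5 members, at 2.02 to 4.01 FPKM in control cells and 0 to 1.29 FPKM in the cold. MSTRG.30177 on chromosome 9 also held 5, all lower, with MSTRG.30177.1 at 6.29 and 2.12 FPKM.

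The transcripts listed under MSTRG.25023 span chr5:42519075-42684592, and 16 members with 5 locus identifiers overlapped this span. Their control means ran from 0.439 to 19.3 FPKM (median 4.09 FPKM) and their cold means from 0.0155 to 1.71 FPKM (median 0.415 FPKM). All 15 that passed the filter were more than 2-fold lower (background 39.4%), at a median log2 ratio of -3.03. The span is that of MSTRG.25023, whose 10 members were already seen to be lower and are among the 16. Their shared direction is thus largely carried over from the choice of the span. The highest in control cells was MSTRG.25024.1, at 19.3 and 1.71 FPKM, with an intron of 4228 nt, and it was chosen after its values were seen. The members of this span overlap each other and may share reads, so they do not count as 16 separate observations.

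Members lay on all 25 chromosomes, from 10 on chromosome 23 to 51 on chromosome 5. They were 6.90% of the intergenic lncRNAs of chromosome 23 and 21.1% of those of chromosome 8. The median log2 ratio was lowest on chromosome 5, at -1.71 over 50 members, and highest on chromosome 4, at 0.24 over 44. Without the members in the span of MSTRG.25023, the median of chromosome 5 was -0.54 over 35 members, so that 1 region set the value of this chromosome. The median intron ranged from 235 nt on chromosome 21 to 7650 nt on chromosome 12. The 27 members of chromosome 12 had only 15 locus identifiers. All members of MSTRG.3604 and MSTRG.3605 there had the same intron of 7985 nt, and both of MSTRG.4046 had 7650 nt. Rows with the same intron thus weigh on this median.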

How the data were processed

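Total RNA of ZF4 cells was sequenced from 3 control and 3 cold acclimated cultures. Per the submitters' processing notes, HISAT2 2.1.0, StringTie 1.3.3 and the GRCz10 build were used. The authors assembled transcripts, filtered them for lncRNAs and deposited 1 mean FPKM per group. The deposited log2 fold changes, p-values, FDR and calls of the authors were not used.

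Log2 ratios of the deposited FPKM means were computed with a pseudocount of 0.1 FPKM over transcripts whose mean exceeded 0.5 FPKM in either group, and differences beyond 2-fold were counted. A limma test had been planned for values per culture. Because FPKM are listed only as group means, all comparisons are descriptions. The depth is unknown, so no interval that needs it is given. Intervals are 95% Wilson intervals for shares and binomial order statistic intervals for medians. Calculations were tested on simulated data.

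Named members are the 5 with the largest and the 5 with the smallest log2 ratio, the 5 with the highest mean, the 3 with the largest and the 3 with the smallest intron (ties by identifier), the 3 longest, the 3 highest listed at 0 in each group, the member with primers, and the loci with the most members. For the loci the limit was 3, but 3 loci tied at 5 members, so 4 were taken. The loci with members beyond 2-fold in both directions were named as well. The members and lists were chosen with earlier results of these data known. Alternatives were tried for the pseudocount, filter, threshold, scaling, length, intron minimum and transcripts per locus. Genome sequence was not used. Calculations ran in Python 3.11.15 (pandas 2.3.3, numpy 2.4.6, scipy 1.17.1), and plots in matplotlib 3.10.9.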

Additional observations from a re-analysis of the deposited data

How the results depend on the processing

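No paired analysis was possible because the table lists FPKM as group means only, and leaving out cultures could not be run for the same reason. With the groups scaled to the median of all lncRNAs, the members' median log2 ratio was 0.058 and that of 1-exon transcripts -0.15, 48.4% of members were lower, 144 were more than 2-fold higher and 163 lower, the median at introns below 50 nt was -0.30, and the log2 ratios of MSTRG.19537.2 (0.024), MSTRG.19537.3 (0.20), MSTRG.20305.1 (0.28) and MSTRG.3604.5 (0.13) turned. Keeping transcripts above 0.5 FPKM in both groups left 445 members. This filter gave -0.36 for the members, -0.32 for 1 exon and a difference of -0.039. Of the 445, 25 were more than 2-fold higher and 100 lower. At introns of 20000 nt or more the median was -0.50. A pseudocount of 1 FPKM gave -0.40, -0.42 and a difference of 0.021, with 27 of 675 members more than 2-fold higher and 117 lower. It also gave -0.60 at introns below 50 nt and -0.66 at 20000 nt or more. At 4-fold, 39 were higher (5.78%, against 6.02% of all lncRNAs) and 123 lower (18.2%, against 16.6%). For the scaled, both-groups and pseudocount counts the share over all lncRNAs was not computed. How far those counts lie from the background is therefore not known. The 1-exon median was -0.69 with a minimum of 1 FPKM and -0.87 with a pseudocount of 0.01 FPKM, and its level was 0.701 FPKM among transcripts shorter than 1000 nt. Over 5 level classes the median difference was -0.023. The medians at introns below 50 nt and of 20000 nt or more were added to the alternatives after seeing the data, as were keeping 1 transcript per interval and leaving out MSTRG.25023 or its span. The cause of these shifts was not tested. The depth behind the values is unknown, so what it limits could not be measured.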
